A study of Mus musculus with 2 samples.

Results

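The cells described here are *Ly6c2*- and *Plac8*-positive, C1q-low monocytes from mouse MC38 tumors, 444 of the 9911 cells that met the quality limits. They were chosen by UMI counts (molecules of RNA counted per gene and cell): *Lyz2* of at least 5, *Cd3d*, *Cd3e* and *Cd3g* at 0, *Ly6c2* and *Plac8* together at least 3, and *C1qa*, *C1qb* and *C1qc* together at most 1. Fewer than 2 of the neutrophil genes *Cxcr2*, *Csf3r*, *Retnlg* and *Hdc* could have a UMI, and Ifit1, Ifit2, Ifit3 and Rsad2 together had to stay below 3. Cells also needed at least 10 Sample Tag reads with at least 75% of them on the tag of 1 arm, 150 to 5000 genes, and at most 20% of UMIs on mitochondrial genes. The levels of all these genes were selected on and are a description of the choice, with no finding resting on them.

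Female C57BL/6 mice of 6 to 8 weeks carried subcutaneous tumors of MC38, a mouse colon cancer line, and received either vehicle (control) or telmisartan, which blocks a receptor of angiotensin II, at 5 mg/kg intragastrically each day from implantation to harvest on day 13. Live CD45+ cells were sorted, and cells pooled from 5 mice of each arm were marked with 1 Sample Tag per pool, an antibody-bound oligonucleotide, and captured together on the BD Rhapsody system. Each arm is therefore 1 pool, its mice cannot be told apart, and no test between the arms was possible. All intervals below are exact 95% intervals for counting error alone, and differences between mice or in handling are not covered. Where a count is 0, the limit given is that of 3 counts.

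As background, classical monocytes of the mouse carry high surface Ly6C, leave the bone marrow by way of the chemokine receptor *Ccr2* and enter inflamed tissue and tumors, where they mature into macrophages or cells with features of dendritic cells. During maturation they lose *Ly6c2*, *Plac8* and the secreted chitinase-like protein *Chil3* and gain complement C1q, lipid-handling and scavenger genes. Interferons, hypoxia and bacterial or tissue signals each add their own genes on top of this course.

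Of the label's 4 markers, *Ly6c2* and *Plac8* were part of the choice, and *Ccr2* and *Chil3* were not. *Chil3* stood at 672 and 321 CPM in control and telmisartan monocytes (CPM, UMIs per 1000000), against 75 and 34.1 CPM in C1q-high macrophages, which are cells within the same *Lyz2*, Cd3, neutrophil and Ifit limits with *Ly6c2* and *Plac8* together below 3 and at least 10 C1q UMIs. For *Ccr2* the levels were 823 and 609 CPM, against 523 and 432 CPM in those macrophages, so this receptor separated them by less. With cells thinned to 2000 UMIs each, *Chil3* was found in 34.4% and 23% of the monocytes and in 6.31% and 4.9% of the macrophages. Without thinning the monocytes gave 49.1% and 29.8%, at median depths of 5457 and 5404 UMIs. It was found in 0 of 111 T cells (at least 3 Cd3 UMIs, fewer than 5 of *Lyz2*, median 3243 UMIs), which allows a share of up to 2.7%. *Ccr2*, which T cells can express, had a UMI in 40.5% of them. The choosing genes *Ly6c2* and *Plac8* had a UMI in 48.6% and 47.7% of these T cells. At least 1 UMI of *Ccr2* or *Chil3* was present in 145 of 169 control and 222 of 275 telmisartan monocytes, and both genes in 72 and 69, so 24 and 53 cells had neither. Against C1q-low cells with fewer than 3 UMIs of *Ly6c2* and *Plac8*, the log2 ratios were 1.81 and 0.87 for *Chil3* and 0.12 and 0.02 for *Ccr2*. Against *Ly6c2*- and *Plac8*-positive cells with at least 2 C1q UMIs they were 1.90 and 1.18 for *Chil3* and 0.12 and 0.03 for *Ccr2*. The label fits the cells as a group against C1q-high macrophages. It fits less clearly against these 2 closer sets, from which *Chil3* but not *Ccr2* set them apart. For single cells these markers do not settle it. The 19 members with UMIs of at least 2 dendritic cell markers, described further on, are an exception.

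How firmly a cell sits inside the limits varied. Both *Ly6c2* and *Plac8* had a UMI in 78 control and 168 telmisartan monocytes (46.2% and 61.1%), *Ly6c2* alone in 49 and 58, and *Plac8* alone in 42 and 49. Together they reached exactly 3 UMIs in 33 and 61 cells, at least 10 in 47 and 100, and at least 20 in 20 and 40. C1q was at 0 in 90 and 156 cells and at 1 in 79 and 119. Just outside, 59 and 72 cells had *Ly6c2* and *Plac8* at 2, 30 and 70 had C1q at 2, 15 and 10 had *Lyz2* at 4, 2 and 4 had a single Cd3 UMI, and 5 and 7 had an Ifit and Rsad2 sum of 3. The 94 members with a sum of 3 had 278 CPM of *Chil3* and 128 of *Ms4a4c*, and the 131 cells with a sum of 2 had 202 and 119. Across the C1q limit, *Apoe* was at 482 CPM in the 198 members with 1 UMI and at 450.5 in the 100 cells with 2, while *Chil3* was at 450.2 and 268 and summed dendritic cell markers at 125 and 302. *Chil3* was thus higher just inside both limits than just outside, in sets that mix the arms in unequal parts. *Ccr2* did not share this, at 719 CPM inside and 704 outside the *Ly6c2* and *Plac8* limit. Across the C1q limit it was at 680 CPM inside and 721 outside. *Ly6c1*, whose sequence is nearly that of *Ly6c2*, had 3 and 5 UMIs, and reads shared by such a pair cannot be assigned with certainty.

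Depth was alike in both arms. The 169 control monocytes held 1071884 UMIs with a median of 1996 genes per cell, and the 275 telmisartan monocytes held 1715141 UMIs with a median of 1968 genes. Mitochondrial UMIs made up a median of 6.08% and 6.25%. C1q-high macrophages were deeper, at medians of 11345 and 8765 UMIs.

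**Figure D1:**
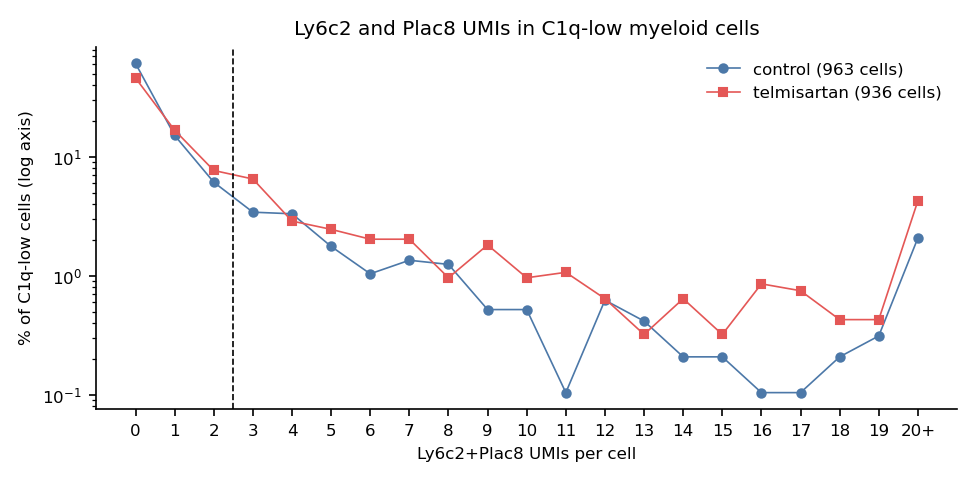
Share of C1q-low myeloid cells (C1q of at most 1, other limits met; 963 control and 936 telmisartan cells) at each number of Ly6c2+Plac8 UMIs, on a log axis, with cells of 20 or more UMIs in the last point. Cells right of the dashed line are the 169 and 275 monocytes; the 20 and 40 cells with 20 or more UMIs form the last points.

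These monocytes were a larger share of the cells that met the quality limits in the telmisartan pool. They made up 169 of 5078 control cells (3.33%, Clopper-Pearson interval 2.85 to 3.86%) and 275 of 4833 telmisartan cells (5.69%, 5.05 to 6.38%), a log2 ratio of 0.77 (0.49 to 1.06). Since the limits count UMIs, the share depends on depth, and the median kept cell held 9055 UMIs in control and 6584 in telmisartan. After thinning every cell to 2000 UMIs and applying the limits to the thinned counts, 87 of 4740 (1.84%) and 152 of 4332 (3.51%) cells met them, a log2 ratio of 0.93 (0.55 to 1.33). On the same cells without thinning the shares were 3.44% and 6.12%. Asking for a UMI of both *Ly6c2* and *Plac8* gave a log2 ratio of 1.18. The share also depends on the mitochondrial limit, which left 5078 of 7701 control and 4833 of 9266 telmisartan cells. It thus took out more of the telmisartan cells. Of cells over it, 4 of 3586 in control and 8 of 5373 in telmisartan met the gene limits. Shares under a looser mitochondrial limit were not computed.

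The share can be split by the limits that made it, as a description of the choice. Among C1q-low cells, 17.5% in control and 29.4% in telmisartan had at least 3 UMIs of *Ly6c2* and *Plac8* (log2 ratio 0.74, 0.46 to 1.03). Among cells with at least 3 such UMIs, 35.9% and 39.2% were C1q-low (0.13, -0.15 to 0.41). The Ly6c2- and Plac8-positive cells with at least 2 C1q UMIs were likewise a larger share in telmisartan (5.95% and 8.84%), while C1q-high macrophages were a smaller one (43.6% and 35.2%). The Ifit limit took out 15 control and 53 telmisartan cells that met every other limit.

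Against C1q-high macrophages, the monocytes carried more of the classical monocyte and interferon-induced genes and less of the macrophage maturation and cell cycle genes. Of 8915 genes with at least 100 UMIs over both sets in each arm, 110 (1.23%) were at least 2-fold higher in the monocytes in both arms and 308 (3.45%) at least 2-fold lower, counts that include 3 genes of the choice on each side. Because C1q, *Ly6c2* and *Plac8* chose both sets, genes whose levels go along with these were chosen with them. With both sets thinned to 2000 UMIs, 80 genes were higher and 134 lower of the 5107 that still met the minimum. The median log2 ratio over all genes was -0.07 in control and -0.03 in telmisartan, so in each arm fewer genes were higher than lower. The share of all genes with the same sign in both arms is not given. The counts by sign of the lists below stand without it.

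Among classical monocyte genes outside the choice, 11 of 14 were higher in both arms and 6 of them at least 2-fold. *Chil3* gave log2 ratios over the macrophages of 3.16 and 3.23 in control and telmisartan, and the proteoglycan versican, *Vcan*, 2.80 and 2.48. *Ms4a4c*, a tetraspan membrane protein of monocytes, gave 2.23 and 1.85. *Hp*, the hemoglobin-binding haptoglobin, stood at 28 and 26.2 CPM in the monocytes, against 2.61 and 3.58 CPM in the macrophages. *F13a1*, the coagulation factor XIII subunit often used as a monocyte gene, did not follow, at -0.04 and -0.28.

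Other genes were named by their ratio to the macrophages, among genes with at least 200 UMIs in at least 20 monocytes. *Slpi*, a protease inhibitor of myeloid cells and epithelia, gave 2.21 and 2.58, and *Inhba*, the activin A subunit, 2.39 and 1.98. The neutrophil-recruiting chemokine *Cxcl3* stood 2.34 and 1.86 above the macrophages, and *Gsr*, glutathione reductase, 2.28 and 1.91. *Mefv*, the pyrin inflammasome sensor, *Cd24a*, a surface sialoglycoprotein, and the phospholipase *Plcb1* lay between 1.85 and 2.17 in the 2 arms. The list genes *Nos2* and *Thbs1* were not among the 15 highest by this ratio. *Nos2*, the inducible nitric oxide synthase, stood at 586 and 359 CPM in the monocytes and 158 and 151 CPM in the macrophages. *Thbs1*, the matrix protein thrombospondin, was more abundant, at 3437 and 3037 CPM against 986 and 1379 CPM.

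Interferon-induced genes were higher than in the macrophages. The same Ifit and Rsad2 limit, a fixed number of UMIs, held for both sets, and the macrophages were deeper. In the type I interferon list 28 of 29 genes were higher in both arms and 14 at least 2-fold, with medians of 1.24 and 1.09. *Slfn4*, a Schlafen gene of activated myeloid cells, led at 2.83 and 3.23, then *Ifi205*, a sensor of the interferon-inducible DNA-binding family (2.58 and 3.08), *Slfn1* (1.80 and 2.18) and the ubiquitin-like *Isg15* (1.77 and 1.92). *Ly6i*, a Ly6 family member near *Ly6a*, stood at 2.82 and 2.76. The Schlafen, Ifi20x and Ly6 families hold near-identical members, so the split of UMIs among them is uncertain. *Bst2* was the exception, at -0.07 and -0.19. Against the Ly6c2- and Plac8-positive cells with C1q, the list's medians were 0.20 and 0.35, with 0 of 24 genes 2-fold higher in both arms. Against C1q-low cells with fewer than 3 UMIs of *Ly6c2* and *Plac8* they were 1.19 and 1.16, with all 24 higher. So the type I interferon list went along with the *Ly6c2* and *Plac8* limit.

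Macrophage maturation genes were lower in 24 of 27 cases in both arms, 13 of them at least 2-fold, with medians of -1.33 and -1.37. *Apoe*, the lipid carrier, gave -2.37 and -2.71, the scavenger receptor *Stab1* -1.77 and -1.26 and the mannose receptor *Mrc1* -2.43 and -1.75. Also low were the tetraspan gene *Ms4a7* (-3.17 and -2.11), the platelet factor *Pf4* (-2.59 and -1.83) and the selenium carrier *Selenop* (-2.19 and -2.04). *Hmox1*, the heme-degrading enzyme, ran the other way within this list, at 1.10 and 0.75, with 59.6% of its control UMIs in 5 monocytes. Outside the list, the tetraspanin *Cd81* (-2.06 and -1.85), the elastase *Mmp12* (-1.17 and -1.21), the urokinase *Plau*, the aminopeptidase *Anpep* (-1.05 and -1.47), the chemokine *Ccl12* (-2.73 and -1.66) and the fatty acid carrier *Fabp5* (-1.35 and -1.17) were lower too. *Pmepa1*, a target of TGF-beta signaling, and *Adgre1*, the F4/80 antigen, closed the 15 lowest among genes with at least 200 UMIs in at least 20 monocytes. Against C1q-low cells with fewer than 3 UMIs of *Ly6c2* and *Plac8* the maturation list differed less, with medians of -0.27 and -0.17 over 23 genes.

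Cell cycle RNA was lower than in the macrophages. All 26 G2/M genes were lower in both arms, 22 at least 2-fold (medians -1.58 and -1.79), as were 24 of 26 S phase genes. *Stmn1*, a tubulin-binding protein of dividing cells, was among the same 15 genes (-2.13 and -1.71). In cells thinned to 2000 UMIs, 125 of 163 control and 148 of 265 telmisartan monocytes had no UMI of the G2/M list. Free RNA can add UMIs to any cell, so cycling is not read from single cells here. Against C1q-low cells with fewer than 3 UMIs of *Ly6c2* and *Plac8* the G2/M list had no common direction. There 3 of 9 genes were higher in both arms, 2 lower and 4 of mixed sign, with medians of 0.17 and -0.12. The S phase medians there were -0.04 and -0.24.

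**Figure D2:**
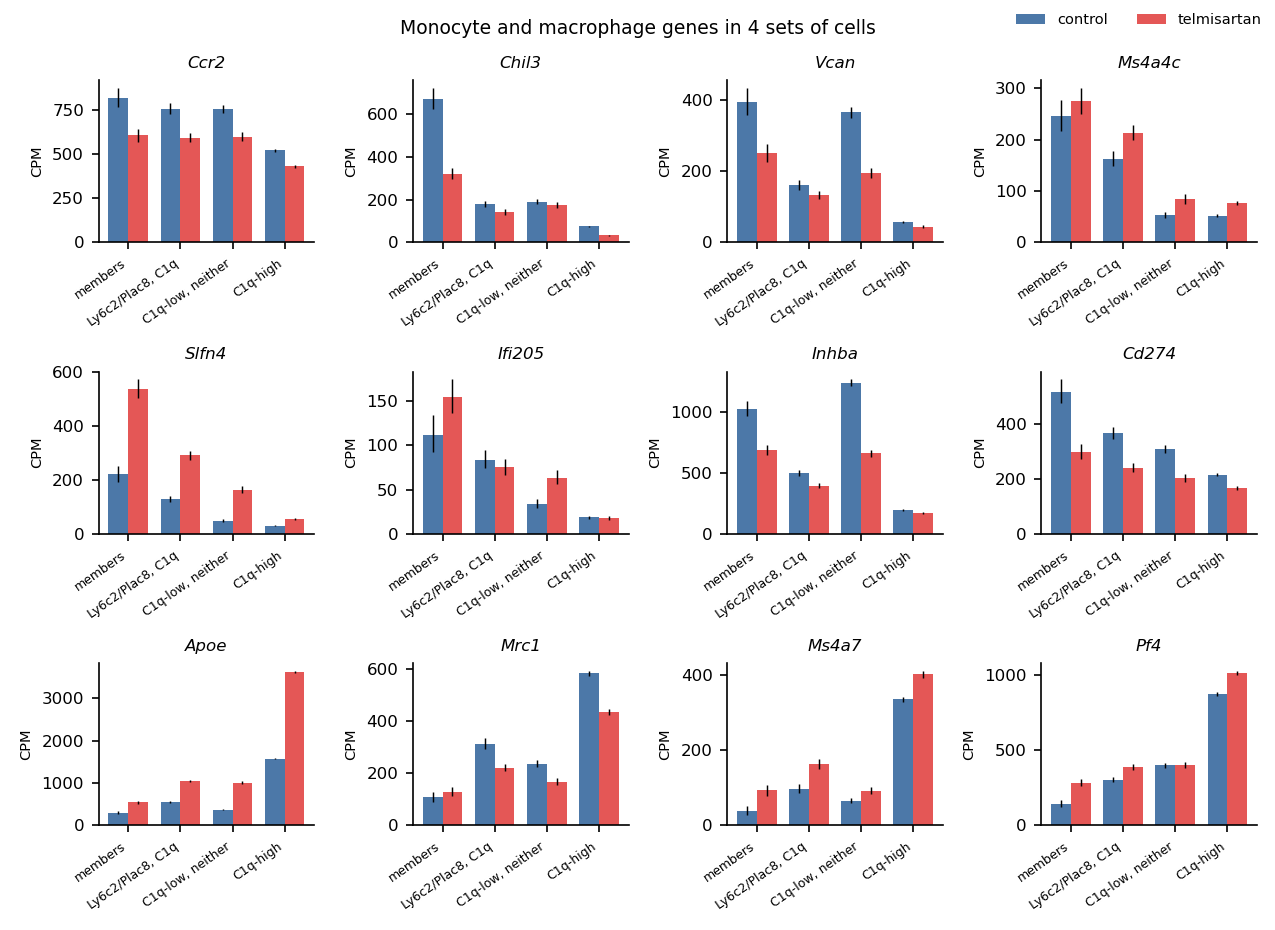
CPM of 12 genes in control and telmisartan for the monocytes (members), Ly6c2/Plac8-positive cells with C1q, C1q-low cells with fewer than 3 Ly6c2+Plac8 UMIs, and C1q-high macrophages, with exact Poisson 95% intervals. Chil3 was at 672 and 321 CPM in the monocytes and at 75 and 34.1 CPM in the macrophages, and Apoe at 306 and 553 against 1577 and 3625 CPM.

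The Ly6c2- and Plac8-positive cells with C1q were much closer. Of 5311 genes, 3 (0.0565%) were at least 2-fold higher in the monocytes in both arms, *Chil3*, *Cxcl3* and *Gsr*, and 23 (0.433%) at least 2-fold lower, among them the 3 C1q genes, *Ccl12* and cell cycle genes. *Chil3* gave log2 ratios of 1.90 and 1.18, *Ccr2* of 0.12 and 0.03 and *Mrc1* of -1.54 and -0.78. Against C1q-low cells with fewer than 3 UMIs of *Ly6c2* and *Plac8*, 25 of 5950 genes (0.42%) were at least 2-fold higher, 2 of them genes of the choice, and 8 (0.134%) lower. Among the higher ones *Ms4a4c* gave 2.19 and 1.71, *Ly6i* 2.05 and 1.85, *Ly6a* 1.25 and 1.37 and *Isg15* 2.22 and 1.32. *Vcan* (0.11 and 0.37), *Inhba* (-0.28 and 0.05) and *Cxcl3* (-0.26 and -0.13) stood at similar levels in both C1q-low sets. The 8 lower genes were *Arap3*, *Cav1*, *Ccl17*, *Gm5483*, *Gpnmb*, *Igfbp4*, *Kcnk13* and *Mmp12*, named after their values were seen.

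Between the arms, telmisartan monocytes had more RNA of early-response nuclear receptors, of type I interferon genes and of several CC chemokines, and less of interferon-gamma-induced genes and *Chil3*. Of 4120 genes with at least 100 UMIs over both arms, 69 (1.67%) were at least 2-fold higher in telmisartan and 16 (0.388%) at least 2-fold lower. The median log2 ratio was 0.00, with quartiles of -0.20 and 0.22, and 579 intervals lay above 0 and 522 below. Of these genes 49.5% were higher in telmisartan and 50.5% lower, the background for each list count below. With fewer UMIs fewer genes enter: with the monocytes thinned to 2000 UMIs, 1447 genes met the minimum, with 37 and 8. None of the genes of the choice was among those 2-fold apart.

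*Nr4a3*, an orphan nuclear receptor induced early after stimulation, had the highest log2 ratio of genes with at least 200 UMIs in at least 20 monocytes. It stood at 62.5 and 296 CPM (log2 ratio 2.24, 1.87 to 2.63), from 67 and 508 UMIs, and lies on chromosome 4 at 48045153 to 48086447 of GRCm38. Its relatives *Nr4a2* (1.03) and *Nr4a1* (0.62) were higher as well. Thinned, a *Nr4a3* UMI was found in 14.1% and 26% of the monocytes, against 45.6% of T cells, so it is not particular to monocytes.

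Among the other 11 of the 12 highest, *Dusp5*, a phosphatase that inactivates ERK, was at 174 and 502 CPM (log2 ratio 1.53, 1.30 to 1.77), and *Nfkbie*, an inhibitor of NF-kappa B, at 135 and 331 CPM (log2 ratio 1.29, 1.03 to 1.56). The histone methyltransferase *Dot1l* (1.92), the DREAM complex subunit *Lin54* (1.47) and the TGF-beta repressor *Tgif1* (1.36) were higher in the same range. *Tnfsf9*, the costimulatory ligand of CD137 on T cells, stood at 50.4 and 169.7 CPM (log2 ratio 1.75, 1.33 to 2.20). The adhesion protein *Flrt3* (2.19), *Fam110a* (1.86), *Rassf3* (1.36), the macrophage gene *Ms4a7* (1.32) and *Slfn4* (1.28) complete the 12. In alternative settings *Flrt3* lay between 1.55 and 2.86, *Fam110a* between 1.56 and 2.47, *Lin54* between 1.18 and 2.18, *Ms4a7* between 1.15 and 2.27 and *Rassf3* between 0.82 and 1.57. All 12 were also higher in telmisartan among C1q-high macrophages, from 0.26 for *Ms4a7* to 1.51 for *Nr4a3*.

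Among the 12 lowest ratios, *Gbp2*, an interferon-induced GTPase, was at 505 and 226 CPM (log2 ratio -1.16, -1.35 to -0.97), and *Gbp7* of the same family at -0.97. *Ifitm1*, an interferon-induced membrane protein, gave -1.16, with 61.1% of its control UMIs in 5 cells, and lay between -1.84 and -0.48 in the alternative settings. *Chil3* stood at log2 ratio -1.07, -1.23 to -0.90, on chromosome 3 at 106147554 to 106167564. In telmisartan 1 cell held 108 of the 550 *Chil3* UMIs. *Fpr2*, a receptor for formyl peptides, was at 306 and 139 CPM (log2 ratio -1.13, -1.38 to -0.89), and the ERK phosphatase *Dusp6* gave -1.10, opposite to *Dusp5*. The uridine phosphorylase *Upp1* (-0.99), the linker histone *Hist1h1c* (-0.97), the SNARE protein *Vamp4* (-0.95), *March1*, a ubiquitin ligase that removes MHC class II from the surface (-0.95), and *Smn1*, of spliceosome assembly (-0.94), follow. All of these were lower in telmisartan C1q-high macrophages too, down to -1.14 for *Chil3*, but *Vamp4* there was at -0.02.

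*S100a8* had the lowest ratio of genes with at least 200 UMIs in at least 20 monocytes, -3.79, and it came from 1 cell. A single control monocyte held 220 of the 233 control UMIs of this neutrophil and monocyte calcium-binding protein and 100 of the 102 UMIs of its partner *S100a9*. That cell had 42 UMIs of *Ly6c2* and *Plac8*, none of *Ccr2*, 1 of the neutrophil genes of the choice and 10.1% mitochondrial UMIs. It met the limits and was kept, but it may be a neutrophil or a doublet of cells with the same tag. Without that cell *S100a8* gave 0.37 (-0.64 to 1.45), so no difference between the arms was detectable at this depth. In telmisartan too, 1 cell held 13 of the 27 UMIs (48.1%), so the sign of this value rests on few cells.

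**Figure D3:**
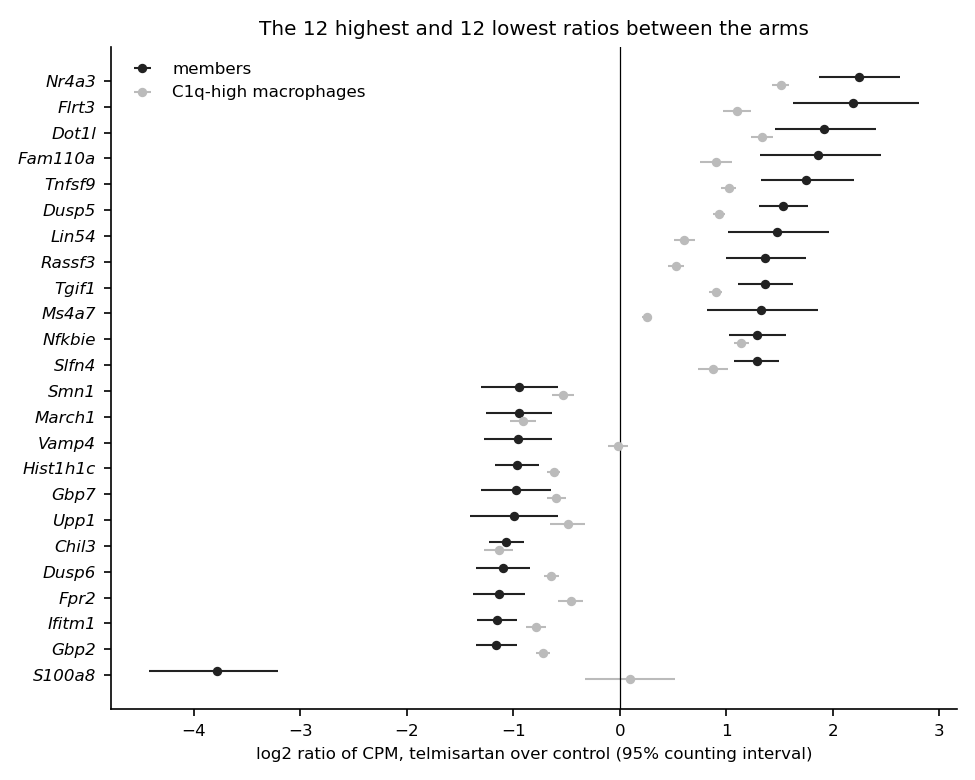
Log2 ratio of CPM, telmisartan over control, of the 12 genes with the highest and the 12 with the lowest ratios in the monocytes (black, members) and of the same genes in C1q-high macrophages (grey), with exact 95% counting intervals. Nr4a3 is highest at 2.24; S100a8, lowest at -3.79, rests on 1 control cell.

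Of 12 classical monocyte genes outside the choice that met the minimum (5 did not), 4 were higher and 8 lower, where 50.5% of all 4120 genes were lower, with a median of -0.13 that was above 0 in 1 of the alternative settings. *Ccr2*, the receptor for *Ccl2*, was at 823 and 609 CPM (log2 ratio -0.43, -0.57 to -0.30), *Vcan* at 395 and 250.1 CPM (log2 ratio -0.66, -0.85 to -0.46) and fibronectin, *Fn1*, at 3172 and 2193 CPM (log2 ratio -0.53, -0.60 to -0.47). *F13a1* (0.29) and *Ifitm3* (0.23) were higher. Of the genes of patrolling monocytes, 6 of 15 met the minimum, 4 higher and 2 lower, with a median of 0.08 that changed sign in 1 setting. The integrin chain *Itgax* gave -0.68, and *Cx3cr1*, the fractalkine receptor of mature monocytes and macrophages, was at 28.9 and 57.1 CPM (log2 ratio 0.98, 0.39 to 1.61).

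Of macrophage maturation genes 14 of 21 were higher, beside 49.5% of all genes, with a median of 0.11. *Apoe* was at 306 and 553 CPM (log2 ratio 0.85, 0.67 to 1.04), *Pf4* at 145 and 284 CPM (log2 ratio 0.97, 0.71 to 1.24) and the lysosomal protease *Lgmn* at 203 and 321 CPM (log2 ratio 0.66, 0.43 to 0.89). In C1q-high macrophages the same genes had a median of 0.21. *Hmox1*, at -0.11, was among the 7 that were lower. Among lineage transcription factors 11 of 18 were higher, beside 49.5% of all genes (median 0.25, macrophages 0.25). *Klf4*, which monocytes need for their differentiation, led (523 and 1118 CPM, log2 ratio 1.09, 0.96 to 1.23).

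Of 16 receptors for migration and adhesion 10 were lower and 6 higher, where 50.5% of all genes were lower. Their median was -0.11, beside -0.01 in the macrophages. Next to *Ccr2* and *Fpr2*, the integrin chains *Itgal*, *Itgb1* and *Itgam* gave -0.83, -0.51 and -0.34. Higher were *Cxcr4* (0.53), the receptor that holds leukocytes in the marrow, *Cx3cr1* and the hyaluronan receptor *Cd44* (0.28). The lymph node homing receptor *Ccr7* had 8 and 55 UMIs, with 46 of those in telmisartan held by 1 cell, so it does not describe the monocytes as a group.

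Receptors for growth factors and cytokines were close to even, 9 of 15 higher with a median of 0.07. *Csf1r*, the receptor of macrophage colony-stimulating factor, stood at 586 and 554 CPM, and *Csf2ra*, of granulocyte-macrophage colony-stimulating factor, at 653 and 687 CPM. *Il10ra* (0.46) and *Ifngr2* (0.49) had intervals above 0, and *Tgfbr1* (-0.43) below.

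Of 16 chemokine ligands that met the minimum, 10 were higher and 6 lower, where 49.5% of all genes were higher. Their median was 0.28, against -0.02 for the same genes in C1q-high macrophages. It was 0.09 with at least 90% of reads on the tag. The monocyte attractants *Ccl2* (870.4 and 1326 CPM, log2 ratio 0.61, 0.50 to 0.72), *Ccl7* (0.86) and *Ccl12* (0.69) were higher, and so was the neutrophil attractant *Cxcl1* (282 and 647 CPM, log2 ratio 1.20, 1.01 to 1.39). *Cxcl2*, of the same family and the most abundant, was at 4753 and 5794 CPM (0.29), whereas *Cxcl3* was lower, at 858 and 457 CPM (-0.91). The T cell attractant *Cxcl9* was at 574 and 304 CPM (log2 ratio -0.91, -1.09 to -0.74) while *Cxcl10*, which binds the same receptor, gave 0.28, with 57.2% of its control UMIs in 5 cells.

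Inflammatory cytokines split. *Il1b*, the pyrogenic cytokine, stood at 4231 and 5274 CPM (log2 ratio 0.32, 0.27 to 0.37) and its relative *Il1a* at 733 and 431 CPM (log2 ratio -0.77, -0.91 to -0.62), in opposite directions. *Nlrp3*, the inflammasome sensor, gave 0.93, *Tnf* 0.92 and the decoy receptor *Il1r2* 0.56, with 70.5% of its control UMIs in 5 cells. *Nos2* (-0.71) and the cytokine *Osm* (-0.52) were lower. Over the list 12 of 18 were higher, with a median of 0.05 that changed sign in 3 settings. *Il10*, the anti-inflammatory cytokine, had 0 UMIs in control, which allows up to 2.80 CPM, and 35 in telmisartan, 24 of them in 1 cell.

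Sensors of microbial and tissue signals showed no common direction, 8 higher and 9 lower of 17, median -0.01. *Tlr2*, a receptor for bacterial lipoproteins, was at 355 and 520.1 CPM (0.55) and the amplifying receptor *Trem1* at 512 and 689.7 CPM (0.43). Fc receptors were slightly lower: *Fcgr2b* gave -0.19, *Fcgr3* -0.22 and *Fcgr4* -0.28. The lipopolysaccharide co-receptor *Cd14*, at 2616 and 3014 CPM, gave 0.20. Clec6a and Clec7a were not analysed here.

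S100 and granule proteins were lower in 13 of 16 cases, with a median of -0.10, a count that includes *S100a8* and *S100a9* with their 1 cell. The abundant *S100a6* (3155 and 2966 CPM, -0.09) and *S100a11* (-0.02) were nearly level, the cysteine protease *Ctsc* was at 2788 and 2152 CPM (-0.37), and *Slpi* was higher, at 202 and 304 CPM (0.59). Of the granulocyte-type monocyte genes 3 of 11 met the minimum, *S100a8*, *S100a9* and the collagenase *Mmp8* (-0.03), and *Mpo* had no UMI in either arm, which allows up to 2.80 and 1.75 CPM. Dendritic-type monocyte genes gave 2 higher and 3 lower of 5, with a median of -0.21 that changed sign in 5 settings.

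For MHC class II, 9 of 10 genes were lower in telmisartan, with a median of -0.27, which was -0.01 among cells with a UMI of both *Ly6c2* and *Plac8*. *H2-Ab1* was at 3907 and 3269 CPM (log2 ratio -0.26, -0.32 to -0.20), the invariant chain *Cd74* at 6032 and 5133 CPM (log2 ratio -0.23, -0.28 to -0.19) and *Ciita*, the class II transactivator, at 76.5 and 41.4 CPM (log2 ratio -0.89, -1.37 to -0.41). The same genes had a median of -0.74 in C1q-high macrophages, and the difference between the sets was not tested. *Cd86*, a costimulatory ligand, was the gene that was higher (0.33). MHC class I genes gave 8 higher and 9 lower of 17, with a median of -0.14 that changed sign in 2 settings. The peptide-trimming *Erap1* (-0.66), the nonclassical *H2-T23* (-0.36) and *Tapbp* (-0.28) were lower. *B2m* was at 5483 and 5675 CPM (0.05), *H2-K1* at 0.06 and *H2-Q7* at 0.85, whose UMIs cannot be told with certainty from those of its near-identical neighbors.

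The interferon lists differed in direction. Of 18 interferon-gamma response genes 13 were lower in telmisartan, with a median of -0.71 beside -0.48 in the macrophages. Among cells with a UMI of both *Ly6c2* and *Plac8* the median was -0.33. Besides the GTPases and *Cxcl9*, *Cd274*, the checkpoint ligand PD-L1, was at 516 and 297 CPM (log2 ratio -0.79, -0.97 to -0.62). *Irf1* was an exception, at 157 and 294 CPM (0.91). Of 23 type I interferon genes 22 were higher, 9 of them with intervals above 0, and *Zbp1* (-0.19) was lower. The median was 0.23, and 0.20 in the macrophages. *Ifi27l2a* was at 306 and 693 CPM (log2 ratio 1.18, 1.00 to 1.36), *Irf7*, the amplifier of this response, at 49.4 and 118 CPM (log2 ratio 1.26, 0.82 to 1.72) and *Rtp4* at 1.09. Cells with at least 3 UMIs of Ifit1, Ifit2, Ifit3 and Rsad2 were left out by the choice, 15 in control and 53 in telmisartan, so these values are of the remaining cells.

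Immediate-early genes did not share 1 direction. In all 13 of 20 were higher, beside 49.5% of all genes (median 0.25, macrophages 0.28). The NR4A genes, *Dusp2* (14 and 138 UMIs, 2.62), *Egr1* (0.97), *Fosb* (866 and 1517 CPM, 0.81) and *Junb* (0.55) were higher. *Fos* (2883 and 2189.9 CPM, -0.40), *Jun* (-0.48), *Atf3* (-0.47) and the RNA-decay factor *Zfp36* (-0.26) were lower. In C1q-high macrophages *Fosb* gave 0.54, *Junb* 0.39, *Fos* -0.52 and *Jun* -0.61.

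Hypoxia and glycolysis genes were even, 11 of 19 higher with a median of 0.03 that was below 0 in 1 setting. *Vegfa*, the vascular growth factor, was at 642 and 908 CPM (0.50) and the hexokinase *Hk2* at 0.66. *Hif1a* itself was at 330.3 and 212 CPM (-0.64). Against C1q-high macrophages 18 of 19 genes of this list were higher in both arms, none of them at least 2-fold in both. The list's medians there were 0.33 in control and 0.37 in telmisartan, beside -0.07 and -0.03 over all genes. The share of all genes higher in both arms is not given. *Ero1l*, an oxidase of the endoplasmic reticulum, gave 1.00 and 0.69 against the macrophages and *Egln3*, an oxygen sensor, 1.43 and 0.96. Against C1q-low cells below the *Ly6c2* and *Plac8* limit the list had no common direction. There 5 genes were higher in both arms, 4 were lower and 10 differed in sign between the arms.

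Genes of coagulation and matrix were 8 higher and 9 lower of 17, with a median of -0.02 that changed sign in 5 settings. *Spp1*, osteopontin, was at 2409.8 and 1510.1 CPM (log2 ratio -0.67, -0.75 to -0.60) and *Thbs1* at -0.18. *F10*, coagulation factor X, was at 399 and 495 CPM (0.31) and the metalloprotease *Mmp19* at 259 and 413 CPM (0.67). Of 9 IL-4 induced genes 4 were higher, with a median of -0.07 that changed sign in 6 settings, and the lectin *Clec10a* was at 70.9 and 20.4 CPM (log2 ratio -1.80, -2.42 to -1.20), with 90.8% of its control UMIs in 5 cells.

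The list of T cell checkpoint ligands, which also holds some receptors, gave 5 higher and 7 lower of 12, with a median of -0.04 that changed sign in 4 settings. Next to *Cd274*, the receptor *Havcr2* (TIM-3) was at 305 and 209.9 CPM (-0.54). *Pvr*, a ligand of the receptor TIGIT, was at 91.4 and 187 CPM (log2 ratio 1.03, 0.70 to 1.38). In the Ly6 family, *Ly6a* and *Ly6e* were level (0.02 and -0.05) and *Ly6i* was lower (-0.78), each uncertain in its assignment.

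The targets of telmisartan were not detected at this depth or nearly so. *Agtr1a*, *Agtr1b* and *Agtr2*, the angiotensin receptors, had 0 UMIs in both arms, which allows up to 2.80 CPM in control and 1.75 CPM in telmisartan. *Agt*, *Ren1*, *Mas1*, *Ppara* and *Angptl4* were at 0 too. *Pparg*, the nuclear receptor that telmisartan partially activates, had 8 and 9 UMIs, in 5 and 8 cells, a share of 2.96% and 2.91%, beside 3.6% of the shallower T cells, and whether these UMIs are free RNA was not tested. *Ace*, the angiotensin-converting enzyme, had 14 and 3 UMIs in 7 and 2 cells. Of the list 7 of 22 genes met the minimum, with a median of 0.03 that changed sign in 3 settings, among them *Ppard* (0.69) and the cholesterol exporter *Abca1* (-0.33).

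Cell cycle genes were too sparse to compare as lists. Of the S phase list 3 of 26 met the minimum and of G2/M 5 of 26, and both medians (-0.18 and 0.36) changed sign in 3 settings each. *Mki67*, a marker of dividing cells, had 55 and 142 UMIs, in 12 and 34 cells (0.69).

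**Figure D4:**
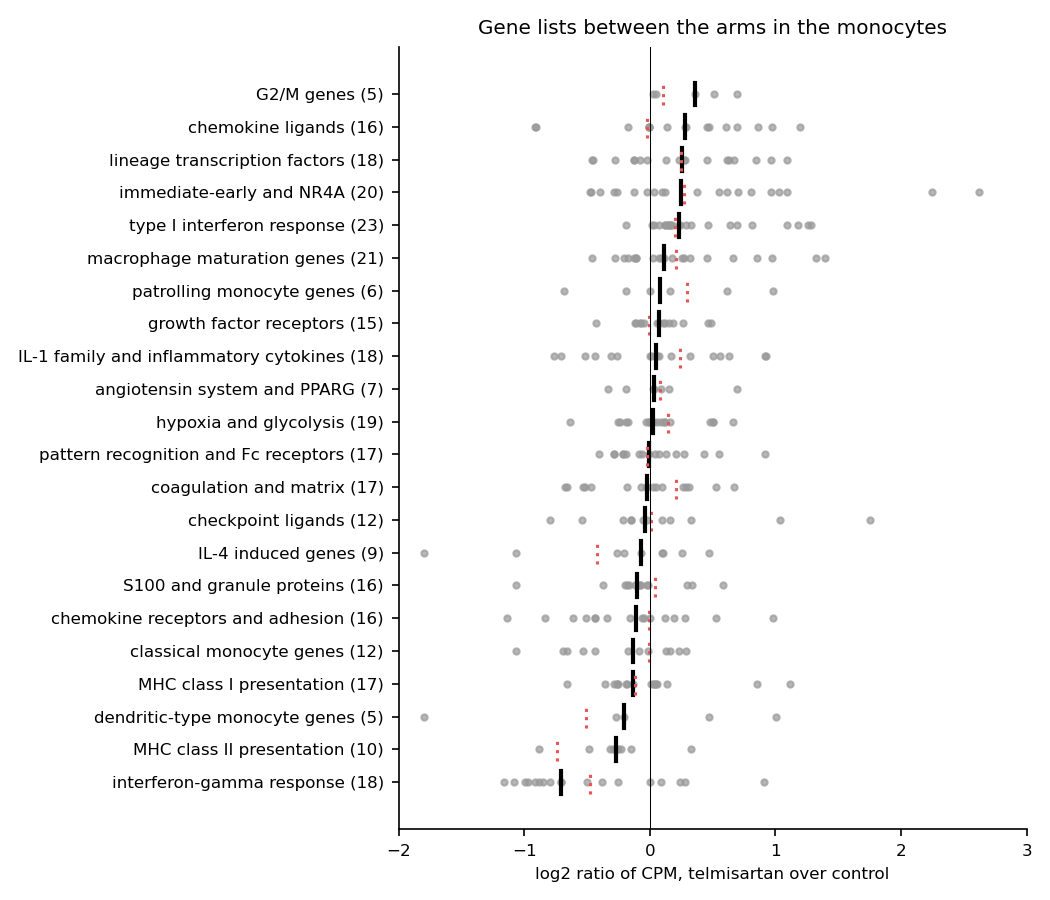
Log2 ratio of CPM, telmisartan over control, of each gene (grey points) in the 22 lists with at least 5 genes that met 100 UMIs in the monocytes, with the list's median in the monocytes (black bar) and the median of the same genes in C1q-high macrophages (dotted red bar). Numbers in brackets count the genes; 2 points lie beyond the axis, and the interferon-gamma list is lowest at -0.71.

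Monocytes can be split by which of the 2 choosing genes they carried, a split that depends on the choice and on depth and is given as a description. The 246 cells with both had 354 CPM of *Ms4a4c*. The 107 with *Ly6c2* alone had 122 CPM. *Chil3* ran the other way, at 411 CPM with both genes and 659 with *Ly6c2* alone, and was at 280 with *Plac8* alone. The arms are mixed in these sets in unequal parts, 78 and 168 cells with both genes and 49 and 58 with *Ly6c2* alone. In the 91 with *Plac8* alone, summed dendritic cell markers reached 309 CPM, 102 of them *Ccr7* with most of its UMIs in 1 cell, against 19.7 with *Ly6c2* alone. *Clec9a*, a marker of cross-presenting dendritic cells, was at 29.3 CPM with *Plac8* alone and 35.8 with both genes. At a sum of at least 10 UMIs, *Chil3* stood at 701 and *Ms4a4c* at 439 CPM. The 19 members with at least 2 dendritic cell markers (8 and 11) had 14.3 CPM of *Chil3*, 13400.1 of *Cd74* and 291 of *Clec9a*. Median depth differed, from 4975 UMIs with both genes to 6579 with *Ly6c2* alone and 10611 in the 19 cells.

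Other cell types were looked for by their markers. All 10 macrophage markers had UMIs, 1744 and 3287 UMIs (1627 and 1916 CPM), against 9158 and 11574 CPM in C1q-high macrophages, with *Apoe* most abundant in telmisartan. Dendritic cell markers had UMIs for 9 of 10 genes in control and 10 of 10 in telmisartan, 91 and 238 UMIs (84.9 and 139 CPM), with *Kit* most abundant in control and *Ccr7* in telmisartan. Neutrophil markers gave 8 and 7 of 9, 684 and 557 UMIs (638 and 325 CPM), led by *S100a8* and *Acod1*, with *Retnlg* at 0. Without the 1 S100a8-rich cell control had 335 CPM and telmisartan 325. For plasmacytoid dendritic cells 4 and 6 of 8 markers had UMIs, 184 and 410 UMIs (172 and 239 CPM), almost all *Bst2* and *Tcf4*, which monocytes express, with *Klk1* at 0.

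Markers of lymphocytes and fibroblasts had few UMIs, and those of endothelium somewhat more. Tumor and epithelial markers were above their level in C1q-high macrophages, which was 51.6 and 39.5 CPM. T cell markers gave 5 and 6 of 12, 10 and 20 UMIs (9.33 and 11.7 CPM), with *Ms4a4b* most abundant, *Cd4*, *Cd8a* and *Gimap4* at 0, and the Cd3 genes at 0 by choice. NK cell markers gave 2 and 4 of 8, 2 and 6 UMIs (1.87 and 3.5 CPM), with *Klre1* first and *Klrb1c*, *Prf1*, *Eomes* and *Klra8* at 0. B cell markers gave 3 and 2 of 7, 5 and 10 UMIs (4.66 and 5.83 CPM), with *Cd79b* and *Ebf1* first and *Cd79a*, *Ms4a1* and *Jchain* among those at 0. Of the 6 tumor and epithelial markers that were counted, 2 had UMIs, 94 and 107 UMIs (87.7 and 62.4 CPM), nearly all *Cdh1*, with the keratins *Krt8*, *Krt18*, *Krt19* and *Krt20* at 0. Fibroblast markers (4 and 7 of 7, 13 and 18 UMIs (12.1 and 10.5 CPM), *Sparc* first) and endothelial markers (4 of 6, 34 and 52 UMIs (31.7 and 30.3 CPM), *Pecam1* first, *Cldn5* and *Egfl7* at 0) were low. Mast cell markers had 1 UMI and 0, of *Tpsb2*, with 7 of 8 genes at 0, and red cell markers 6 and 0, led by *Hba-a1*, with *Hbb-bt* and *Alas2* at 0. Without the 19 members that carry dendritic cell markers, no named gene changed sign between the arms, and 6 list medians did: dendritic-type, inflammatory cytokine, hypoxia, IL-4, angiotensin and checkpoint genes.

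What these counts can carry is bounded by the design. With 1 pool of 5 mice per arm and 1 capture, the spread between mice is unknown, and a single mouse could supply many of the 444 monocytes. Shares are of sorted and captured cells and say nothing of cell numbers per tumor. RNA was measured, and neither protein nor receptor blockade was. Doublets of cells with the same tag were not called, and free RNA was looked at in 111 T cells alone. Of these T cells 60.4% had a UMI of *Cd74*, 40.5% of *Il1b*, 35.1% of *Apoe* (153 CPM) and 26.1% of *C1qb*. Whether those UMIs are free RNA was not tested, and the levels in monocytes were not corrected for it. Several values rest on few cells, as named above, and genes with few UMIs may differ without being seen.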

How the data were processed

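The authors counted UMIs with the BD Rhapsody WTA pipeline 1.11 on GRCm38 with GENCODE M19, and the deposited values are raw counts (UMI counts per gene and cell, and Sample Tag read counts per cell), without normalization or filters. A cell was given to an arm with at least 10 Sample Tag reads, at least 75% of them on its tag. For each set and arm, UMIs of all cells were added per gene and scaled to CPM. Intervals are exact Poisson (levels), Clopper-Pearson (shares) and conditional binomial (log2 ratios). Named genes were the 12 highest and 12 lowest ratios between the arms among genes with at least 200 UMIs in at least 20 members, the 15 highest and 15 lowest against C1q-high macrophages, and genes of the 25 lists and 13 marker sets. Members and lists were chosen with earlier results of these data known. Same-tag doublets were not called. Alternatives covered tag share, gene minimum, mitochondrial limit, the limits on *Ly6c2*, *Plac8* and C1q, dendritic cells, the deepest cells, depth, scaling and UMI minimum. Positions are from GENCODE M21. The intervals were tested on simulated data. Python 3.11.15, numpy 2.4.6, scipy 1.17.1, pandas 2.3.3 and matplotlib 3.10.9 were used. Cldn4, Clec6a, Clec7a, Ear11, Elane, Ly6d and Ly6m were not analysed here. Values of some other list genes are not reported here, though list counts and medians include them.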

Additional observations from a re-analysis of the deposited data

Results flagged for a closer look

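For 15 genes of the lists described here the log2 ratio between the arms had opposite signs in the monocytes and in C1q-high macrophages, with both counting intervals away from 0, and the difference between the sets was not tested. Higher in telmisartan monocytes and lower in telmisartan macrophages were *Stab1* (0.46 in the monocytes and -0.05 in the macrophages), *Ccl6* (0.14 and -0.17), *Ccl12* (0.69 and -0.38), *Cxcl10* (0.28 and -0.31), *Stat2* (0.70 and -0.21) and *Klf6* (0.12 and -0.09). Lower in the monocytes and higher in the macrophages was the matrix gene *Thbs1* (-0.18 and 0.48). The receptors and lipid genes *C3ar1* (-0.21 and 0.10), *Itgam* (-0.34 and 0.12) and *Abca1* (-0.33 and 0.50) did the same. So did *Mgst1* (-0.69 and 0.24), *Prdx5* (-0.20 and 0.12), *Tapbp* (-0.28 and 0.07), *Bnip3* (-0.25 and 0.34) and *Ero1l* (-0.18 and 0.13).

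Cells outside the 9911 also met the gene limits of the monocytes. Among cells split between the Sample Tags and within the limits on genes and mitochondrial UMIs, 42 of 941 (4.46%, 3.24 to 5.99%) did, as did 6 of 122 (4.92%) with fewer than 10 Sample Tag reads. Among cells with over 20% mitochondrial UMIs 4 of 3586 in control (0.112%) and 8 of 5373 in telmisartan (0.149%) did.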

How the results depend on the processing

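The log2 ratio of the monocyte share lay between 0.72 and 1.18 in all 10 alternatives, and with a UMI of both *Ly6c2* and *Plac8* it moved to 1.18. None of these used a mitochondrial limit looser than 20%, which took out unequal parts of the arms. Of the 24 genes named between the arms, 23 kept their sign in every setting, but not all stayed 2-fold apart. With a UMI of both *Ly6c2* and *Plac8*, *Ifitm1* gave -0.48, *Gbp2* -0.60 and *Fpr2* -0.64, and with 3000 to 10000 UMIs per cell *Chil3* gave -0.60. *Rassf3* gave 0.82 with monocytes thinned, and *Flrt3* 1.55 with both genes. *S100a8* turned to 0.57 at the 10% mitochondrial limit, which leaves out the 1 cell that held most of its UMIs, and to 0.37 without that cell, an alternative chosen after seeing the data, as was leaving out the 5 members with the most UMIs of each gene, under which no named gene changed sign. Of the 25 lists, 10 kept the sign of their median throughout: macrophage maturation, lineage factors, growth factor receptors, migration receptors, chemokine ligands, S100 proteins, MHC class II, both interferon lists and immediate-early genes. The interferon-gamma median lay between -0.75 and -0.33, the MHC class II median between -0.42 and -0.01 and that of chemokine ligands between 0.09 and 0.38. The granulocyte-type median turned to 0.14 at the 10% mitochondrial limit. The G2/M median turned to -0.15 with C1q at 0, to -0.15 without the deepest cells and to -0.10 with 3000 to 10000 UMIs per cell, and the cause was not tested. Genes at least 2-fold higher and lower between the arms numbered 37 and 8 with monocytes thinned to 2000 UMIs, 135 and 42 at a minimum of 50 UMIs, and 35 and 6 at 200, where 1447, 6073 and 2366 genes entered in place of 4120. Genes 2-fold below C1q-high macrophages numbered 134 when both sets were thinned and 5107 genes entered, of which 93 were among the 308, and 451 with a UMI of both *Ly6c2* and *Plac8*. Across 17 settings including the reported one, more genes were 2-fold higher than lower in telmisartan. No paired analysis was possible because each arm is 1 pool. At 1071884 control UMIs, a gene with no UMI may still stand at up to 2.80 CPM.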

Other observations

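The monocytes spread widely in MHC class II RNA. In the 428 monocytes thinned to 2000 UMIs, 131 had at most 2 UMIs of *H2-Aa*, *H2-Ab1*, *H2-Eb1* and *Cd74* together and 108 had at least 40, limits set by the lower and upper quartile after the values were seen. The low group held 50 of 163 control and 81 of 265 telmisartan cells (30.7% and 30.6%), the high group 47 and 61 (28.8% and 23%). Unthinned median depth in the low and high group was 5129.5 and 6620 UMIs in control but 6338 and 5407 in telmisartan.

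In the low and high group *Chil3* stood at 756 and 125 CPM, *Vcan* at 424 and 102 CPM and *Thbs1* at 5424 and 1264 CPM. *Spp1* was at 2011 and 727 CPM and *Slpi* at 401 and 46.3 CPM. For *Ccr2* and *Ms4a4c* the arms differed and are given apart, without counting intervals. The small step of *Ccr2* in control is not read as a direction. From the low to the high group, *Ccr2* was at 750 and 681 CPM in control and 580.2 and 746 CPM in telmisartan, and *Ms4a4c* at 370 and 202 CPM and 327 and 484 CPM. The high group had more of the integrin *Itgax* (53.4 and 343 CPM), the decoy receptor *Il1r2* (141 and 815 CPM), the lectin *Mgl2* (30.5 and 227 CPM) and summed dendritic cell markers (3.82 and 231 CPM). In telmisartan cells *Fn1* was at 2796 and 689 CPM in the low and high group, and in control cells at 2920 and 2500 CPM.

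Across single thinned monocytes, the MHC class II list and the coagulation and matrix list had Spearman correlations of -0.52 in 163 control and -0.55 in 265 telmisartan cells. Hypoxia genes went with inflammatory cytokines at 0.50 and 0.39, with 1 gene shared by the lists, and type I with interferon-gamma genes at 0.44 and 0.36. These cells share a pool, a capture and a fixed depth, and the values are a description.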
